A study of Mus musculus with 12 samples.

Results

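The genes of the NFκB subunits and of the IκB proteins that hold them back were followed in pancreatic stellate cells (PSCs), the fibroblast-like cells of the pancreas. They were chosen by name and comprised the 5 subunit genes *Nfkb1*, *Nfkb2*, *Rela*, *Relb* and *Rel*, and the 5 genes *Nfkbia*, *Nfkbib*, *Nfkbie*, *Nfkbiz* and *Bcl3* of the IκB family, 10 of the 39179 genes counted. Of these, 9 were higher in PSCs cultured with both tumour cells and macrophages than in PSCs cultured with tumour cells alone, led by *Bcl3* and *Nfkbia* at 8.67-fold and 8.48-fold, while *Rel* did not pass the test in any comparison. Of all genes tested, 5.73% were called higher and 4.95% lower between these cultures. With a library left out, 4 to 9 members and 4.25% to 18% of all genes were called. In the main fits *Bcl3* passed the filter on low counts only in comparisons with 3-way cultures, where it was high. With tumour cells alone, none of the members tested passed the test against mono-culture, where 0.839% of all genes were called higher and 0.152% lower.

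PSCs labelled with mCherry, whose strain is given as C57BL/6, were kept for 72 h on their own (mono-PSCs), together with pancreatic cancer cells (PCCs) labelled with EGFP (2W-PSCs), or together with PCCs and macrophages (MØs) labelled with TagBFP (3W-PSCs), and were then sorted on mCherry. The PCCs were 1 mouse tumour line that carries a *p48-Cre* driver, a rtTA-IRES-GFP transgene and a floxed *p53* allele and is grown with doxycycline, and the MØs were the RAW264.7 mouse leukaemic macrophage line. All 3 cultures were kept in minimal medium with a low serum content, all labels came from lentivirus with the SFFV promoter, and a PSC culture with MØs but without PCCs was not among the libraries. Each culture gave 4 libraries, 12 in all, which the submitters call biological replicates. They are cultures of the same cell lines, so that p-values measure the spread between cultures and not between animals.

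NFκB proteins bind DNA as pairs of subunits. In resting cells the classical pairs, made of p50 (from *Nfkb1*) with RelA or c-Rel, are kept in the cytoplasm by IκBα, IκBβ and IκBε, the products of *Nfkbia*, *Nfkbib* and *Nfkbie*, until the IKK kinase marks the inhibitor for degradation. A slower route, run by the kinase NIK, turns the p100 protein of *Nfkb2* into p52, which pairs with RelB. IκBζ (*Nfkbiz*) and BCL3 are nuclear members of the family that sit on p50 or p52 and change which targets are transcribed. Several of these genes are themselves NFκB targets, and in fibroblasts the pathway is known for driving chemokines, cytokines and acute-phase proteins.

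Because several of the genes are known targets of the factors they encode, their start sites were searched for the NFκB consensus decamer, on both strands and with overlapping matches counted, in the RefSeq promoter sequences of GRCm38.p6, which run from 250 bases before to 50 after a start. A promoter was found for 7 of the 10 members, and 5 of these 7 held the decamer, against 9.55% of the 27025 genes with a promoter. A gene can have more than 1 listed promoter. These members had 9, of which 7 held the decamer, against 8.46% of all 32851 promoters. The decamer was found in *Nfkbia*, *Nfkb2*, *Rel*, *Nfkbie* and *Bcl3*. It was not found in the windows of *Rela* and *Nfkbib*. No promoter was listed for *Nfkb1*, *Relb* and *Nfkbiz*. The sequences below are shown because they put the most strongly changed inhibitor and *Bcl3* beside *Rel*, which holds the motif too and did not pass the test in any comparison. Each runs 5′ to 3′ on the strand of its gene, from 120 bases before the start through 15 bases from it, with the decamer, or overlapping decamers, in capitals.
*Nfkbia*, chr12:55492633-55492767, minus strand: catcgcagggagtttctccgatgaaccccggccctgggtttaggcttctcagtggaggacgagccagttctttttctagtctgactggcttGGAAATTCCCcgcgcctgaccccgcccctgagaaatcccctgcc
*Nfkb2*, chr19:46304617-46304751, plus strand: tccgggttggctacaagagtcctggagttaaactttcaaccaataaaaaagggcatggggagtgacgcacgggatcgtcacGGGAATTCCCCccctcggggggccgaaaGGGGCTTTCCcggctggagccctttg
*Rel*, chr11:23770955-23771089, minus strand: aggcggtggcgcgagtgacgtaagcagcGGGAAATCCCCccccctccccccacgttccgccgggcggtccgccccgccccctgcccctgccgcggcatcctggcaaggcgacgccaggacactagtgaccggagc
*Nfkbie*, chr17:45555580-45555714, plus strand: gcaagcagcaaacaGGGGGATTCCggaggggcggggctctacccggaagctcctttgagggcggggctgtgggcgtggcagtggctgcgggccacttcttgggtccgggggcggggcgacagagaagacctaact
*Bcl3*, chr7:19822741-19822875, minus strand: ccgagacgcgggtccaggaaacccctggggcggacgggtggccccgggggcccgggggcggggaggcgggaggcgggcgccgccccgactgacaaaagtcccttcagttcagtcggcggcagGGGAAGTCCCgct
The decamer of *Nfkbia* lay 29 to 20 bases before the start and that of *Nfkbie* 106 to 97 bases before it. The printed *Nfkb2* promoter held a palindromic one 39 to 30 bases before its start, overlapped by another match shifted by 1 base, and a further one 11 to 2 bases before it. The other listed promoters of *Nfkb2*, with later starts and not printed here, also held the decamer. *Rel* had a decamer 92 to 83 bases before the start that matched the consensus on both strands, again with an overlapping match, and that of *Bcl3*, which also matched on both strands, lay after the start, at bases 3 to 12. A match describes these letters and shows no binding in PSCs, and the starts are those of RefSeq and need not be the gene ends that GENCODE gives.

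Total counts per library were 5286963 to 8093368 in mono-PSCs, between 4561817 and 6907711 in 2W-PSCs and between 7205488 and 8061367 in 3W-PSCs. Replicate 2 of the 2W-PSCs stood apart from all others in a principal component analysis. None of the 12 stellate cell markers was at 0 in every library of a culture. One of them, *Lum*, reached at most 0.398 counts per 1e6 (CPM) in 3W-PSCs. The sums of the 12 in CPM ran from 9242 to 12916 in mono-, 12788 to 19900.1 in 2W- and 7659 to 9038 in 3W-PSCs. Between 3W-PSCs and 2W-PSCs, 2 of the 12 were called higher and 5 lower, where 5.73% and 4.95% of all genes were. The sum of the 15 macrophage markers was between 10.2 and 13.4 CPM in mono-, between 12.4 and 17.5 in 2W- and between 31.3 and 70 in 3W-PSCs, and *Cd14* had the highest mean of the 15 in each culture. In mono-PSCs and 2W-PSCs, 8 of the 15 were at 0 in every library, among them *Ptprc*, *Tyrobp*, *Spi1* and *Laptm5*, and in 3W-PSCs 2 were at 0, *Adgre1* and *Osm*. Without *Cd14*, the other 14 gave 13.5, 8.91 and 12.1 CPM in replicates 1 to 3 of the 3W-PSCs and 46.6 in replicate 4. In mono-PSCs they gave 2.28 to 8.03 CPM, below every 3W-PSC library. In 2W-PSCs they gave 3.38, 10.8, 4.3 and 3.21 CPM in replicates 1 to 4. Only replicate 2 of the 2W-PSCs thus reached into the range of 3W-PSCs. For the 12 epithelial markers the sum was between 0.484 and 3.69 CPM in mono-, between 79.8 and 149 in 2W- and between 51.2 and 90.7 in 3W-PSCs, with *Cldn4* at 0 throughout. Fewer cells of a type and less RNA per cell cannot be told apart in such bulk libraries, and the part of these other cells' RNA in the results was not tested.

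Levels are CPM scaled by TMM over all libraries, and a gene is said to have risen or fallen where edgeR's quasi-likelihood test gave an adjusted p under 0.05 over all genes. Errors of fold changes are standard errors on the log2 scale. The 2 comparisons that involve 3W-PSCs use the same 3W-PSC libraries and are not independent of each other.

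**Figure D1:**
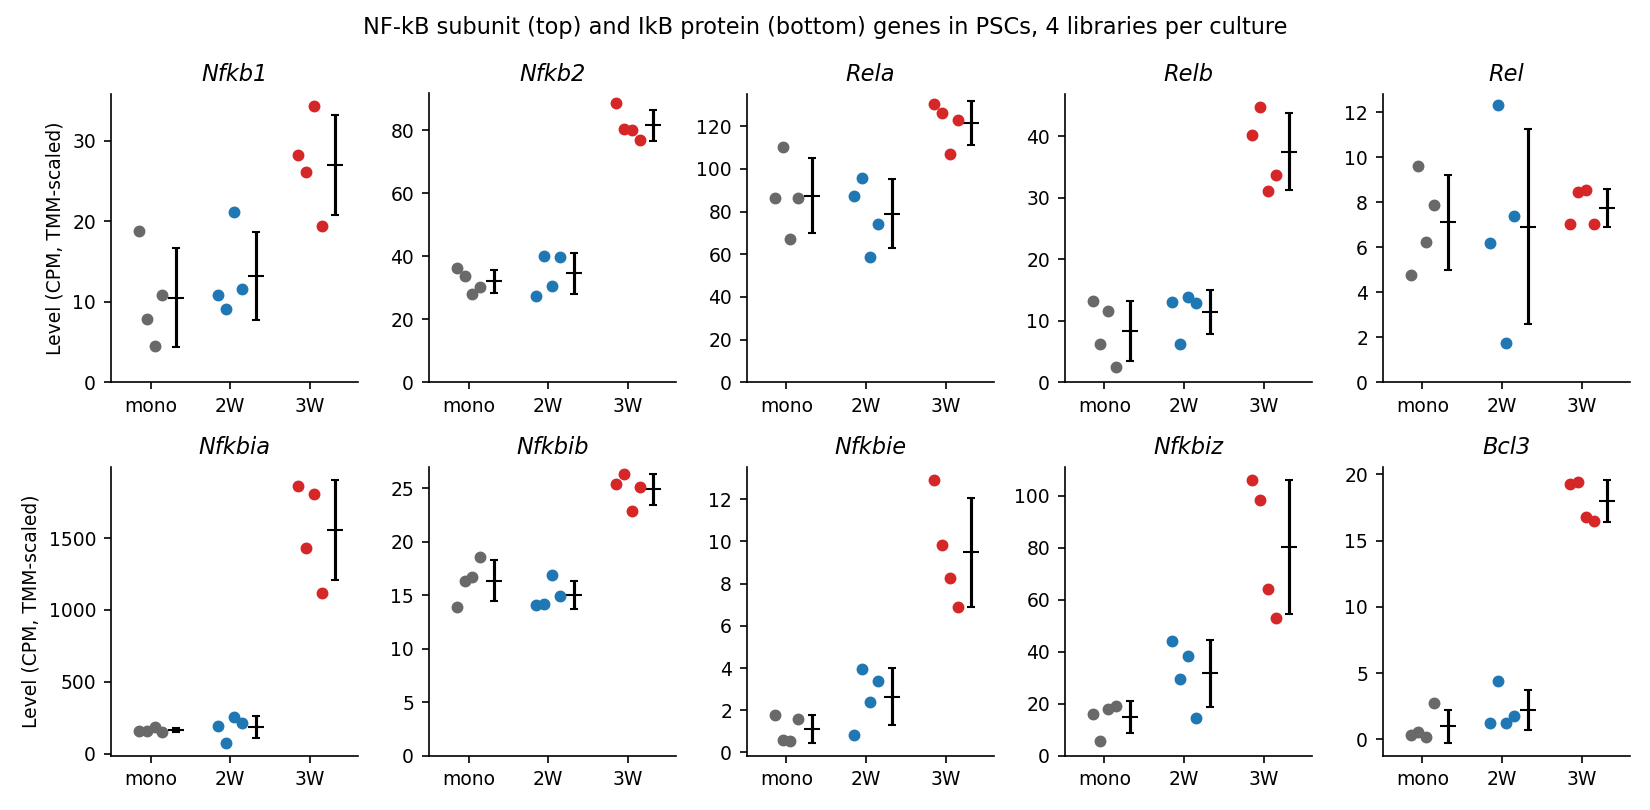
Level of each of the 10 genes in every library (points, CPM, linear axes starting at or just below 0), in mono-PSCs, 2W-PSCs and 3W-PSCs, with the mean and SD of the 4 libraries beside them (black). The 3W-PSC points lie above all others except for *Nfkb1*, *Rela* and *Rel*.

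Among the subunits, *Rela*, which encodes the transactivating partner of the classical pair, had the highest level. It stood at 86.2, 110.1, 66.9 and 86.4 CPM in replicates 1 to 4 of the mono-PSCs, at 87.1, 95.9, 58.9 and 74.2 CPM in 2W-PSCs and at 130.2, 126, 107 and 123 CPM in 3W-PSCs. All 3W-PSC libraries were above those of 2W-PSCs, whereas 1 mono-PSC library reached into the 3W-PSC range. The rise from 2W-PSCs to 3W-PSCs was 1.54-fold (log2 0.63 ± 0.18, edgeR adjusted p = 0.0466), and from mono-PSCs it was 1.39-fold (log2 0.47 ± 0.16, edgeR adjusted p = 0.0396). Both calls were close to the threshold, and against 2W-PSCs only 7 of 19 alternative fits kept it, with adjusted p from 0.000321 to 0.138, and against mono-PSCs 11 of 17.

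*Nfkb1*, the gene of p105 and its product p50, had levels of 18.8, 7.83, 4.44 and 10.9 CPM in mono-PSCs, 10.8, 9.08, 21.2 and 11.6 CPM in 2W-PSCs, and 28.2, 26.1, 34.4 and 19.4 CPM in 3W-PSCs. The highest 2W-PSC library exceeded the lowest 3W-PSC library, so that these cultures overlapped, and mono-PSCs and 3W-PSCs did not. The gene rose 2.05-fold from 2W-PSCs to 3W-PSCs (log2 1.03 ± 0.29, edgeR adjusted p = 0.0454) and 2.55-fold from mono-PSCs (log2 1.35 ± 0.32, edgeR adjusted p = 0.00486). The first of these calls was kept in 10 of 19 alternative fits, the second in all 17.

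*Nfkb2* separated the cultures far more cleanly. Its levels were 36.2, 33.9, 27.9 and 30.4 CPM in mono-PSCs and 27.5, 40.2, 30.7 and 39.8 CPM in 2W-PSCs. In 3W-PSCs they were 88.7, 80.5, 80.3 and 77 CPM, with a spread of only 4.98 CPM (SD, n = 4) around a mean of 81.6. The lowest 3W-PSC library thus lay well above every other library, and the gene rose 2.37-fold over 2W-PSCs (log2 1.25 ± 0.18, edgeR adjusted p = 0.00153) and 2.53-fold over mono-PSCs (log2 1.34 ± 0.16, edgeR adjusted p = 5.7e-06). Exons of *Nfkb2* overlap those of *Psd* on the opposite strand by 299 bases, and the strand setting of the counting is not stated, while *Psd* itself had at most 3.05 CPM in any library. They also overlap those of AC114539.1 on the opposite strand, by 531 bases.

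*Relb*, whose product pairs with p52, had the largest rise among the subunits. It was at 13.2, 6.27, 11.5 and 2.54 CPM in mono-PSCs, at 13, 6.13, 13.9 and 12.8 CPM in 2W-PSCs and at 40.2, 44.8, 31.1 and 33.6 CPM in 3W-PSCs. Every 3W-PSC library was above all 8 others. The fold changes were 3.25 against 2W-PSCs (log2 1.70 ± 0.26, edgeR adjusted p = 0.00254) and 4.51 against mono-PSCs (log2 2.17 ± 0.34, edgeR adjusted p = 0.00016), and both calls were kept in all alternative fits.

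*Rel*, the gene of c-Rel, which is best known from lymphocytes and macrophages, was the exception. It had 4.74, 9.6, 6.21 and 7.86 CPM in mono-PSCs, 6.19, 12.3, 1.75 and 7.39 CPM in 2W-PSCs and 7.04, 8.44, 8.53 and 7.01 CPM in 3W-PSCs, and the range of 3W-PSCs lay inside that of either other culture. Its log2 difference between 3W-PSCs and 2W-PSCs was 0.19 with a 95% interval of -0.793 to 1.18 (edgeR adjusted p = 0.824), and against mono-PSCs it was 0.12 with an interval of -0.502 to 0.744 (edgeR adjusted p = 0.798). Smaller changes in either direction thus lay within the intervals, while rises as large as those of *Relb* lay outside both.

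Of the 5 genes that encode IκB proteins, *Nfkbia* was by far the most abundant, and its product IκBα is the classical inhibitor that is resynthesised after NFκB enters the nucleus. Its levels were 159, 159, 182 and 147 CPM in mono-PSCs and 189.8, 76.8, 256 and 212 CPM in 2W-PSCs. In 3W-PSCs they were 1865, 1434, 1805 and 1117 CPM. The lowest 3W-PSC library was above the highest of the others by a wide margin, while mono-PSCs and 2W-PSCs overlapped. The gene rose 8.48-fold over 2W-PSCs (log2 3.08 ± 0.34, edgeR adjusted p = 0.00037), the 74th highest log2 fold change among the 11513 genes tested, and 9.58-fold over mono-PSCs (log2 3.26 ± 0.19, edgeR adjusted p = 2.01e-09).

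*Bcl3* started from almost nothing. It was at 0.351, 0.588, 0.178 and 2.78 CPM in mono-PSCs, which came from 2, 3, 1 and 23 counts, and at 1.27, 4.42, 1.27 and 1.77 CPM in 2W-PSCs. In 3W-PSCs it was at 19.3, 19.4, 16.8 and 16.5 CPM, so that the 4 libraries differed little among themselves and all were above every other. The rise over 2W-PSCs was 8.67-fold (log2 3.12 ± 0.39, edgeR adjusted p = 0.000701), and that over mono-PSCs 16.1-fold (log2 4.01 ± 0.47, edgeR adjusted p = 7.21e-06). The latter rests on few counts in mono-PSCs, and over the alternatives its log2 value ran from 3.69 to 5.54. *Bcl3* passed the filter on low counts in both comparisons with 3W-PSCs, where it was high, but not in that of 2W-PSCs with mono-PSCs.

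*Nfkbie*, the gene of IκBε, was another low gene that rose. Levels were 1.76, 0.588, 0.533 and 1.57 CPM in mono-PSCs, 0.845, 3.93, 2.39 and 3.37 CPM in 2W-PSCs and 12.9, 9.83, 8.27 and 6.89 CPM in 3W-PSCs, with all 3W-PSC libraries above the rest. The fold changes were 3.67 against 2W-PSCs (log2 1.88 ± 0.44, edgeR adjusted p = 0.0204) and 8.12 against mono-PSCs (log2 3.02 ± 0.43, edgeR adjusted p = 5.48e-05).

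*Nfkbiz*, the gene of the nuclear IκBζ, which acts as a co-activator at secondary response genes such as *Il6*, was at 16.1, 5.68, 18.1 and 19.1 CPM in mono-PSCs, 44.1, 29.7, 38.4 and 14.4 CPM in 2W-PSCs and 106, 98.3, 64.3 and 53.1 CPM in 3W-PSCs. The 3W-PSC libraries again lay above all others. The rise over 2W-PSCs was 2.55-fold (log2 1.35 ± 0.33, edgeR adjusted p = 0.0269) and over mono-PSCs 5.37-fold (log2 2.43 ± 0.30, edgeR adjusted p = 1.1e-05). It was also the member nearest to a difference between 2W-PSCs and mono-PSCs, where 3 of the 4 2W-PSC libraries were above every mono-PSC library (log2 1.11 ± 0.40, unadjusted p = 0.0161, edgeR adjusted p = 0.406).

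*Nfkbib*, the gene of IκBβ, had a smaller rise on a tight baseline. It was at 13.9, 16.3, 16.7 and 18.6 CPM in mono-PSCs, 14.1, 14.2, 16.9 and 14.9 CPM in 2W-PSCs and 25.4, 26.3, 22.9 and 25.1 CPM in 3W-PSCs, which did not overlap with either. The fold changes were 1.66 against 2W-PSCs (log2 0.73 ± 0.18, edgeR adjusted p = 0.0278) and 1.51 against mono-PSCs (log2 0.60 ± 0.19, edgeR adjusted p = 0.0282). The calls were kept in 11 of 19 and 13 of 17 alternative fits. *Nfkbid*, a further gene of the family, had at most 6 counts in any library and was not tested.

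Between 2W-PSCs and mono-PSCs, 9 of the 10 members were tested and 0 rose or fell, beside 0.839% of all 11199 genes called higher and 0.152% called lower. At an unadjusted p under 0.05 there was 1, *Nfkbiz*, and DESeq2's Wald test also called 0. The median log2 difference of the 9 was 0.20, against 0.02 for all genes, and the libraries of the cultures overlapped for each member. The intervals were wide, for instance -0.524 to 1.48 for *Relb* and -0.211 to 2.61 for *Nfkbie*, so that changes of 2-fold were not excluded for these genes. They come from the fit without the replicate block, and with the block 0 members were called as well.

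Between 3W-PSCs and 2W-PSCs, 9 of 10 members rose and 0 fell, where 5.73% of 11513 genes were called higher and 4.95% lower. For 8 members all 3W-PSC libraries were above all 2W-PSC libraries, as for 11.5% of all genes. The median log2 difference was 1.30 against 0.003 for all genes. Of the members that rose, 7 changed more than 2-fold. Of the 11513 genes, 672 were called with a change that large in either direction. The calls of *Nfkb2*, *Relb*, *Nfkbia* and *Bcl3* were kept in every alternative fit that tested them, but with replicate 1 or replicate 2 of the 3W-PSCs left out these 4 were the only ones, and without replicate 4 of the 2W-PSCs 5 were called. Of all genes, 4.71%, 4.25% and 5.68% were called with these libraries left out, against 10.7% with every library. Against mono-PSCs, 9 of 10 rose and 0 fell, with 13.4% of 11551 genes called higher and 13.0% lower. Here too 8 members did not overlap, against 13.7% of all genes, and the median was 1.76 against 0.01 for all genes.

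**Figure D2:**
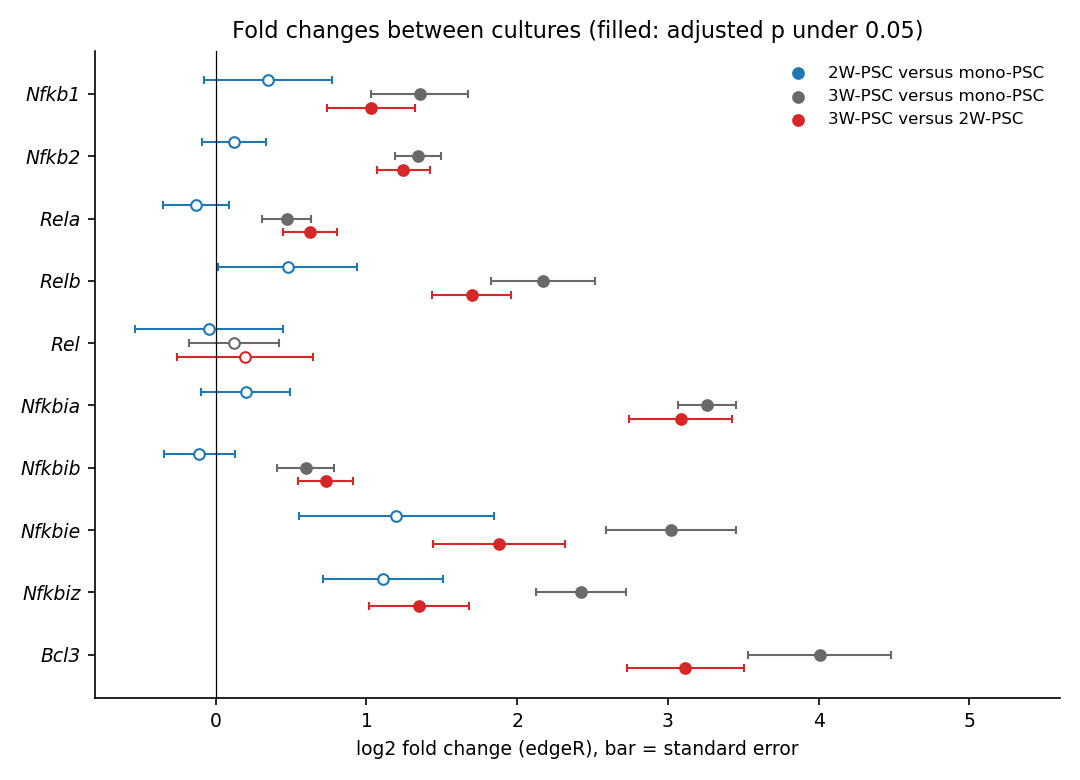
Log2 fold change of each gene with its standard error in the 3 comparisons of cultures, from edgeR. Filled points passed an adjusted p of 0.05 and open points did not, and *Bcl3* was not tested between 2W-PSCs and mono-PSCs. The blue points, 2W-PSCs against mono-PSCs, are all open and lie between -0.13 and 1.20, and *Rel* is open in every comparison.

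Replicate 4 of the 3W-PSCs had the highest sum of macrophage markers, with 107 counts of *Lyz2* and 75 of *Laptm5*, and of the 4 3W-PSC libraries it had the lowest level of *Nfkb1*, *Nfkb2*, *Rel*, *Nfkbia*, *Nfkbie*, *Nfkbiz* and *Bcl3*. This library also had the highest epithelial sum of the 4, at 90.7 CPM, and what sets it apart was not tested. Without it, the log2 fold change against 2W-PSCs was 3.22 for *Nfkbia*, 3.15 for *Bcl3*, 2.00 for *Nfkbie*, 1.75 for *Relb*, 1.51 for *Nfkbiz* and 1.27 for *Nfkb2*, each at least as large as with it and each still called. *Nfkb1*, *Rela* and *Nfkbib* were then no longer called, with edgeR adjusted p of 0.0564, 0.114 and 0.0795. In that fit 5.71% of all genes were called, against 10.7% with every library.

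The members rose unequally, so that the mix of subunit transcripts differed between cultures. As a share of the summed CPM of the 5 subunits, *Rela* made up 59.9% on average in mono-PSCs, 54.1% in 2W-PSCs and 44.2% in 3W-PSCs. *Nfkb2* went from 22.2% and 23.8% to 29.7%, and *Relb* from 5.93% and 8.12% to 13.5%. The summed level of *Nfkb2* and *Relb*, the pair of the slower route, divided by that of *Nfkb1*, *Rela* and *Rel* lay between 0.313 and 0.508 in mono-, between 0.388 and 0.566 in 2W- and between 0.742 and 0.780 in 3W-PSCs. These are descriptions without a test, and they concern transcripts and not the processed proteins.

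The balance of inhibitor to subunit transcripts was described in the same way. The sum of *Nfkbia*, *Nfkbib* and *Nfkbie* divided by that of the 5 subunits was 1.10, 1.05, 1.70 and 1.21 in mono-PSCs, 1.42, 0.58, 2.18 and 1.58 in 2W-PSCs and 6.47, 5.13, 7.02 and 4.42 in 3W-PSCs. The subunit sum itself lay between 117 and 168 CPM in mono-, between 126 and 164 in 2W- and between 259.8 and 294 in 3W-PSCs. *Nfkbia* alone was 92.0% of the summed IκB family transcripts in 3W-PSCs, 75.7% in 2W-PSCs and 83.0% in mono-PSCs. *Nfkbiz* took its highest mean share in 2W-PSCs, 14.7%, against 7.51% in mono-PSCs and 4.79% in 3W-PSCs, although its level was highest in 3W-PSCs.

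**Figure D3:**
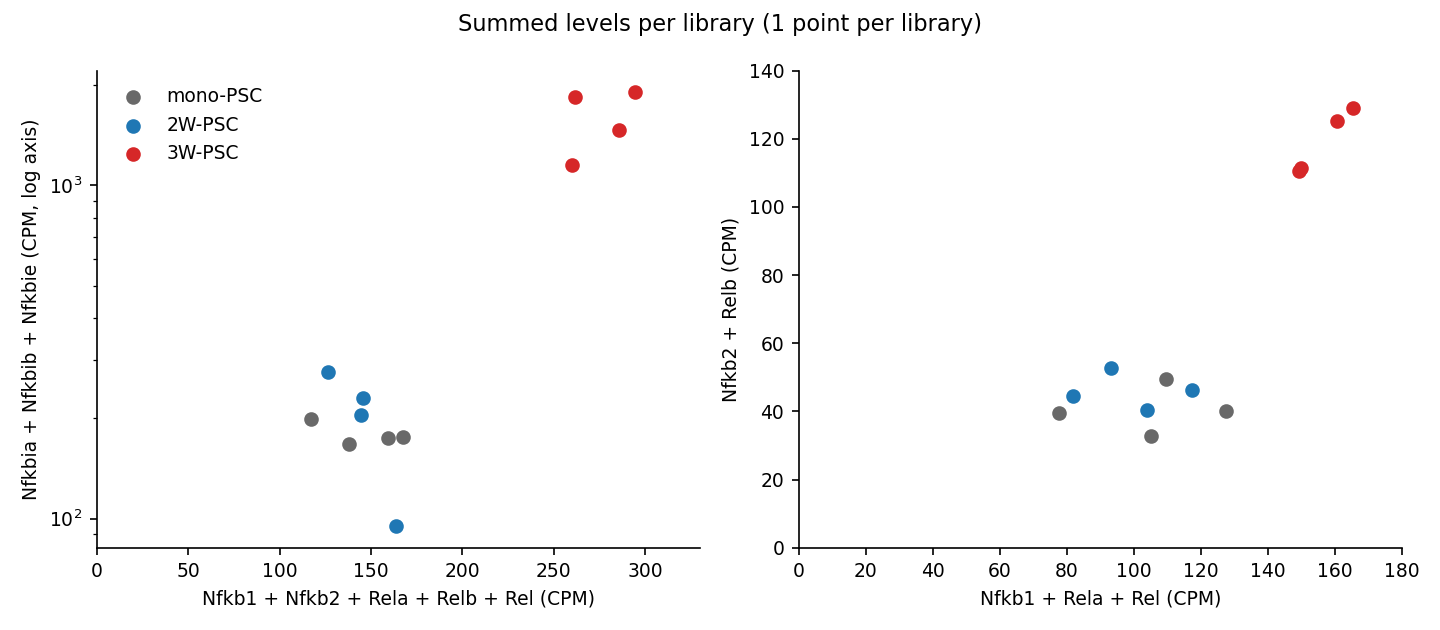
Summed levels per library in CPM, 1 point per library. Left, *Nfkbia*, *Nfkbib* and *Nfkbie* (log axis) against the 5 subunits (linear axis), where 3W-PSC libraries have 1149 to 1903 CPM of inhibitor transcripts and the others 94.9 to 275. Right, *Nfkb2* and *Relb* against *Nfkb1*, *Rela* and *Rel*, both linear, where the 3W-PSC libraries lie above and to the right of all others.

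Of 11 genes of the IKK complex and its upstream kinases, 1 rose between 2W-PSCs and 3W-PSCs and 0 fell, where 5.73% of all genes were called higher. DESeq2's Wald test called 2, as did edgeR without replicate 2 of the 2W-PSCs, where 13% and 18% of all genes were called. The gene called by edgeR was *Ikbke*, the gene of the IKK-related kinase IKKε, which is itself inducible, with means of 4.90 ± 2.97 and 16.9 ± 8.76 CPM (SD, n = 4 each, log2 1.83 ± 0.47, edgeR adjusted p = 0.0319). *Chuk*, the gene of IKKα, was at 23.1 ± 11.1 and 45.4 ± 10.2 CPM (SD, n = 4 each) and did not pass (log2 0.97 ± 0.32, edgeR adjusted p = 0.0799), although it did against mono-PSCs (log2 0.90 ± 0.24, edgeR adjusted p = 0.0108). *Ikbkb*, the gene of IKKβ, had a log2 difference of -0.13 ± 0.27 and *Map3k14*, the gene of NIK, one of -0.48 ± 0.32 (edgeR adjusted p of 0.795 and 0.382). The call of *Ikbke* was lost when replicate 4 of the 2W-PSCs, or replicate 1 or 2 of the 3W-PSCs, was left out.

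Adaptors and feedback inhibitors gave 6 genes that rose between 2W-PSCs and 3W-PSCs, where 5.73% of all genes were called higher. Of the 7 TRAF and cIAP genes, *Traf1* and *Birc3* rose from 2W-PSCs to 3W-PSCs and 0 fell. *Birc3*, the gene of cIAP2, averaged 1.68 ± 1.57 and 12.4 ± 5.21 CPM (SD, n = 4 each). *Traf1* reached at most 0.321 CPM with PCCs alone, and lay between 1.43 and 4.05 CPM with MØs. Of 10 feedback and other inhibitors, 4 rose, 5 did not pass and *Nfkbid* was not tested. Those that rose were *Tnfaip3*, *Tnip3*, *Tnip1* and *Cyld*. *Tnfaip3*, the gene of the ubiquitin-editing enzyme A20, lay between 0.491 and 2.87 CPM in the former and between 12.6 and 42.3 CPM in the latter (log2 3.91 ± 0.53, edgeR adjusted p = 0.00115). *Cyld*, the gene of a deubiquitinase that limits the pathway, rose by 0.51 on the log2 scale (edgeR adjusted p = 0.0416). With a library left out, 1 to 3 of the 7 and 3 to 5 of the 10 were called, and 4.25% to 18% of all genes. *Traf1*, *Birc3*, *Tnfaip3* and *Tnip3* passed the filter on low counts only in the comparisons with 3W-PSCs, where they were high. With at least 10 counts required in every library, 0 of the 7 and 2 of the 10 were called, as genes low in 2W-PSCs were then not tested. Of all genes, 12.1% were called in that fit.

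Of 10 receptor genes, 1 rose between 2W-PSCs and mono-PSCs, where 0.839% of all genes were called higher. With the replicate block, with all 12 libraries in one fit and by DESeq2's Wald test, 2 were called. Of all genes, 1.21%, 2.22% and 2.01% were called in these fits, in that order. The one called without the block, *Tnfrsf1b*, the gene of the second TNF receptor, rose from 20.8 ± 2.48 to 49.0 ± 10.3 CPM (SD, n = 4 each, log2 1.25 ± 0.22, edgeR adjusted p = 0.0143) and had 75.2 ± 10.4 CPM (SD, n = 4) in 3W-PSCs, which was not called against 2W-PSCs (edgeR adjusted p = 0.0625). The call between 2W-PSCs and mono-PSCs was lost in 5 of the 8 fits with a library left out, those without replicate 2, 3 or 4 of the mono-PSCs or replicate 1 or 4 of the 2W-PSCs. Between 2W-PSCs and 3W-PSCs, *Tlr2*, *Tlr3* and *Tnfrsf1a* rose among 10 receptor genes, 6 did not pass and *Cd40* was not tested. Of all genes, 5.73% were called higher there. *Tlr2*, which senses bacterial lipoproteins, went from 2.85 ± 1 to 23.3 ± 2.75 CPM (SD, n = 4 each, log2 3.04 ± 0.31, edgeR adjusted p = 0.000181). *Il1r1*, the IL-1 receptor gene, had a log2 difference of -0.66 (edgeR adjusted p = 0.128).

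Of 28 well-known target genes, 17 rose from 2W-PSCs to 3W-PSCs, 0 fell, 4 did not pass and 7 were too low to be tested, *Tnf*, *Il1b*, *Nos2* and *Icam1* among them. Of all genes, 5.73% were called higher in this comparison. The targets with the largest changes were *C3*, the central complement gene, *Saa3*, an acute-phase apolipoprotein, and *Ccl7* and *Ccl2*, which attract monocytes. *Ccl2* averaged 26.7 ± 15.7 CPM with PCCs alone and 1203 ± 230.1 CPM once MØs were present (SD, n = 4 each, log2 5.49 ± 0.46, edgeR adjusted p = 5.81e-05). *C3* lay between 0.159 and 1.12 CPM with PCCs alone and between 157 and 226 CPM with MØs. With a library left out, 13 to 20 of the 28 were called, and 4.25% to 18% of all genes. Of the 28, 21 passed the filter on low counts here, and some, *C3* among them, passed it only in comparisons with 3W-PSCs, where they were high. With at least 10 counts required in every library 11 were called, as genes low in 2W-PSCs were then not tested. Of all genes, 12.1% were called in that fit. Between 2W-PSCs and mono-PSCs 0 of the 28 were called in the fit of these cultures, with 16 tested, and 1 in edgeR's fit of all 12 libraries. Of all genes, 0.991% and 2.22% were called in these fits, in that order. Against mono-PSCs 20 rose in 3W-PSCs, where 13.4% of all genes were called higher.

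**Figure D4:**
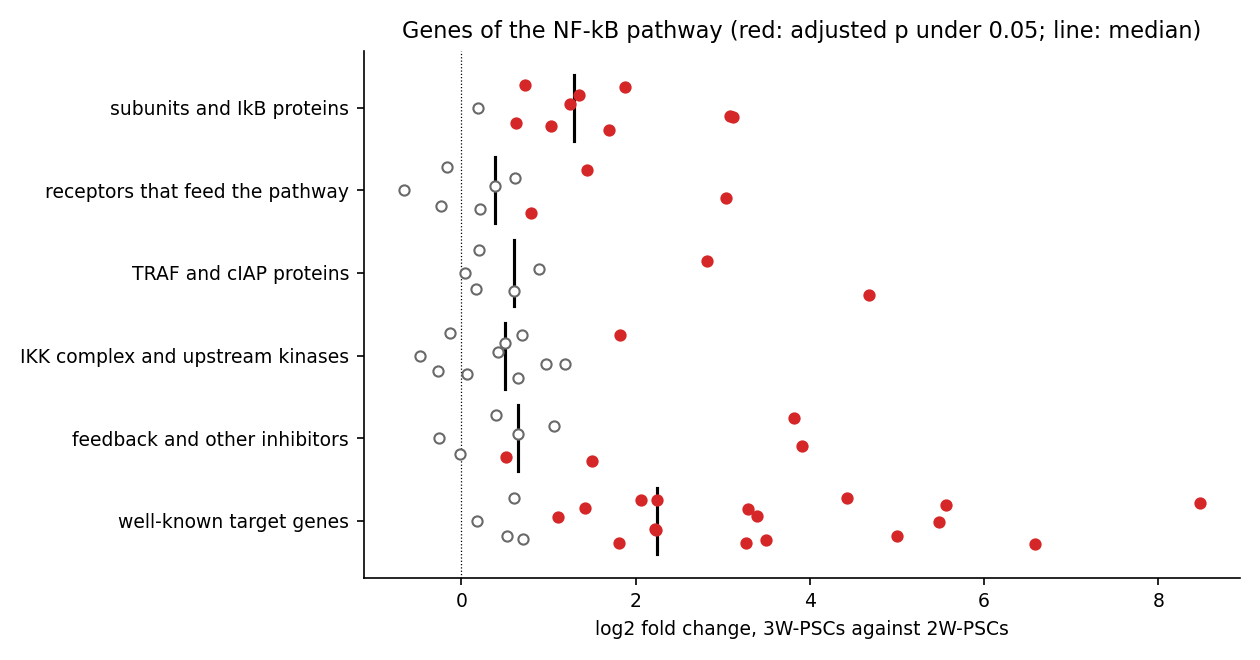
Log2 fold change between 2W-PSCs and 3W-PSCs of every tested gene of the pathway, by role, from edgeR. Red points passed an adjusted p of 0.05, open points did not, and black lines are the medians of the tested genes, 1.30 for the subunits and IκB proteins, 0.50 for the kinases and 2.24 for the target genes. Fitted values of genes that are almost at 0 in 2W-PSCs, such as *Traf1* and *Tnip3*, depend on the prior count.

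The genes whose profile over the 12 libraries was most like that of a member were found by the root mean square difference of centred log2 CPM among 8331 genes, as a description. *Nfkbia* was nearest to *H2-D1*, a classical MHC class I gene, at 0.274 and to *Gbp2*, a guanylate-binding protein gene, at 0.386. *Nfkb2* was nearest to *Ifnar2*, the gene of an interferon receptor chain, at 0.191 and to *Eda2r*, which encodes a TNF receptor family member, at 0.227. *Bcl3* had *Parp14* at 0.651 and *Gbp3* at 0.679, *Relb* had *Abca1* at 0.408 and *Dram1* at 0.412, and *Nfkbiz* had *Pdgfra* at 0.418 and *Timp1* at 0.473. *Rela* was nearest to *Carm1* at 0.123 and *Usp4* at 0.155, and *Nfkbib* to *Cdc34* at 0.125 and *Rtn4* at 0.137. *Nfkb1* had *Lzic* at 0.251 and *Schip1* at 0.262, and *Rel* had *Rtkn* at 0.303 and *Pgm2* at 0.347. Small distances are easier to reach for genes that vary little, as *Rela* and *Nfkbib* did.

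In GENCODE release M21 on GRCm38 all 10 are protein-coding genes. *Relb* (minus strand, 19606217 to 19629438), *Bcl3* (minus strand, 19808462 to 19822770) and *Nfkbib* (minus strand, 28758251 to 28767512) are on chromosome 7. *Rela* (plus strand, 5637483 to 5648130) and *Nfkb2* (plus strand, 46304320 to 46312385) are on chromosome 19. *Nfkb1* lies on chromosome 3 (minus strand, 135584655 to 135691547), *Rel* on chromosome 11 (minus strand, 23736847 to 23770970), *Nfkbia* on chromosome 12 (minus strand, 55489410 to 55492647), *Nfkbiz* on chromosome 16 (minus strand, 55811375 to 55838899) and *Nfkbie* on chromosome 17 (plus strand, 45555703 to 45563169). Besides *Nfkb2*, the exons of *Nfkbib* overlap those of *Sirt2* by 42 and of *Ccer2* by 314 bases, and those of *Bcl3* overlap *Gm16175* by 161, all on the opposite strand. *Gm16175* had 0 counts in every library, and *Sirt2* had 18.6 to 36.9 CPM.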

How the data were processed

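RNA of sorted PSCs was measured in 12 libraries, 4 per culture. The authors made QuantSeq 3′ FWD libraries, trimmed the reads, aligned them with STAR to GRCm38 and counted them with featureCounts, and the deposited values are raw counts per gene, although the methods speak of normalised counts. About 1 fragment arises per transcript, so levels need no length correction. Molecular identifiers and the strand setting are not given in the sources used here, so the counts include PCR copies.

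Counts were analysed with edgeR 4.0.16 in R 4.3.3 (TMM, filterByExpr, glmQLFit and glmQLFTest), each fit holding the 8 libraries of 2 cultures, without a block. Genes were called at an adjusted p (Benjamini-Hochberg, over every gene tested) under 0.05. DESeq2 1.42.0 was an alternative. The scripts were tested on simulated counts. Total counts were 4561817 to 8093368 per library. Intervals are 95% intervals of the fit.

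The members and lists were chosen with earlier results of these data known. Named were all members, listed genes that were called or whose role the text describes (of the targets the 4 with the largest change), and the 2 genes most like each member with at least 5 CPM on average, among genes of at least 10 CPM. *Otulin* and *Adgre1* were matched through their older symbols. Alternatives were other scalings, filters, fits and tests, thinning to the smallest total, and each library left out. Same-numbered libraries of 2W-PSCs and mono-PSCs deviated together (correlations of 0.141 to 0.508). The fold changes, errors and intervals given for these cultures leave this pairing out, and the replicate block was an alternative. With the replicate block 0 members were called between 2W-PSCs and mono-PSCs, as without it. An allele of the PCC line and the values of 1 marker are not reported here.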

Additional observations from a re-analysis of the deposited data

Results flagged for a closer look

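In 3 of the 30 combinations of gene and culture, 1 library stood apart from the other 3 by Dixon's test at the 95% level, a rule by which chance flags about 1 in 20 groups. *Relb* was at 6.13 CPM in replicate 2 of the 2W-PSCs, against 12.8 to 13.9 CPM in the others of that culture. *Bcl3* was at 4.42 CPM in the same library, against 1.27 to 1.77 CPM. This is the library that stood apart from all others in the principal component analysis. Without it, *Relb* and *Bcl3* were still called between 3W-PSCs and 2W-PSCs, as were the 7 other members called with it. *Bcl3* was also at 2.78 CPM in replicate 4 of the mono-PSCs, against 0.178 to 0.588 CPM, or 23 counts against at most 3.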

How the results depend on the processing

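No call of a member between 2W-PSCs and mono-PSCs arose in any of 19 alternatives. Against mono-PSCs, 7 to 9 members were called in 3W-PSCs, also with a library left out, and 17.5% to 36.3% of all genes over the alternatives. Between 3W-PSCs and 2W-PSCs, leaving out a library gave 4 to 9 members: 4 without replicate 1 or 2 of the 3W-PSCs, 5 without replicate 4 of the 2W-PSCs and 9 without its replicate 2, which was the library that stood apart. The share of all genes called moved too. It was 4.71%, 4.25%, 5.68% and 18% in these fits, in that order, against 10.7% with every library. In this comparison *Nfkb2*, *Relb*, *Nfkbia* and *Bcl3* were kept in all alternatives that tested them, *Nfkbiz* in 16 of 19, *Nfkbie* in 15 of 18, *Nfkbib* in 11, *Nfkb1* in 10 and *Rela* in 7 of 19. A filter of at least 10 counts in every library left 8 members tested, of which 7 were called, with 12.1% of all genes. It left out *Bcl3* and *Nfkbie*, which were low outside 3W-PSCs. With the replicate block 6 members were called instead of 9, and 6.53% of all genes instead of 10.7%. Whether the numbers pair those cultures is not settled. Same-numbered libraries correlated at -0.056 to 0.24, and the same number was the best match for replicates 1, 3 and 4. Between 3W-PSCs and mono-PSCs they correlated at -0.048 to 0.229, with the same number the best match for replicates 3 and 4. There 9 members and 26.8% of all genes were called with the block. A pair of fits without replicate 2 of the 2W-PSCs, all other libraries together and DESeq2 on them, was chosen after seeing the data and called 8 and 9 members between 3W-PSCs and 2W-PSCs. Of all genes, 11.6% and 16.1% were called in these fits.

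The sign of *Rel* changed in 2W-PSCs against mono-PSCs when libraries were thinned (0.095 on the log2 scale), without replicate 2 of the mono-PSCs (0.11) and without replicate 3 of the 2W-PSCs (0.278). It also changed against mono-PSCs in 3W-PSCs (-0.038, without replicate 1 of the mono-PSCs) and against 2W-PSCs (-0.138, without their replicate 3). *Nfkbia* changed sign in 2W-PSCs against mono-PSCs without replicate 3 of the 2W-PSCs (-0.011). With a library left out the whole ranges were -0.47 to 0.278 (*Rel*) and -0.011 to 0.443 (*Nfkbia*) in 2W-PSCs against mono-PSCs, and for *Rel* in 3W-PSCs -0.038 to 0.289 against mono-PSCs and -0.138 to 0.602 against 2W-PSCs. None of these differences was called. When the ratios were taken over means of log2 CPM instead of sums, so that each gene weighs alike, *Nfkb2* and *Relb* over *Nfkb1*, *Rela* and *Rel* became -0.229, 0.115 and 0.898 on the log2 scale in mono-PSCs, 2W-PSCs and 3W-PSCs, and the inhibitors over the subunits -0.164, 0.013 and 0.91, with 3W-PSCs highest by both measures. From mono-PSCs to 3W-PSCs the inhibitor ratio rose more than the subunit ratio when sums were used, where *Nfkbia* dominates, and slightly less with each gene weighed alike. Depth limits *Bcl3*, *Nfkbie* and *Rel* most, which have few counts outside 3W-PSCs or throughout.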
